A study of Mus musculus with 4 samples.

Results

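The genes described here are 5 RNA-binding proteins that regulate splicing in epithelium (Esrp1, Esrp2, Rbfox2, Mbnl1 and Ptbp1) and 5 genes whose exon choice they are known to control (Fgfr2, Cd44, Ctnnd1, Enah and Arhgef11). They were taken by gene symbol from the transcript tables of all 4 libraries. They make up 10 of 55203 genes and 160 of 141738 transcripts. Values are FPKM, fragment numbers normalised for transcript length and library size, so levels can be compared between genes of different length. A gene's level is the sum over its transcripts.

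RNA was sequenced after depletion of ribosomal RNA from intestinal tissue of wild-type adult male C57BL/6NTac mice, 8 to 12 weeks old and housed specific-pathogen-free (SPF). The RVC group (2 libraries) carried the label of ribonucleoside vanadyl complex at 4 mM, an inhibitor of ribonucleases. The fresh frozen group (2 libraries) carried only that label, and the same protocol text, including an RVC rinse, stood beside all 4 libraries. The study wanted an in-house reference for MERFISH imaging of the gut and gave no question of its own for comparing the groups. A batch number of its own was given to each library, and therefore group and batch cannot be told apart. Nothing states that the libraries came from separate mice, so p-values measure the spread between these libraries, which may be technical.

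The labels name the tissue ileum, whereas the protocol and design text name distal colon. The ileal genes Fabp6 (bile acid binding) and Slc10a2 (bile acid uptake) lay between 2.33 and 3.96 FPKM, and the colonic genes Car1 (carbonic anhydrase) and Hoxb13 (posterior identity) between 98.5 and 1781 FPKM. Fresh frozen 2 was the deepest library, and the other 3 had 72.6% to 81.8% of its depth. The number of fragments is unknown, so no counting interval can be given. In such bulk tissue, fewer cells of a type and less RNA per cell cannot be told apart. All 10 smooth muscle markers had higher values in both RVC libraries than in either fresh frozen library, with summed levels of 1332 and 1982 FPKM against 844 and 879 FPKM. The same held for all 8 endothelial markers, with summed levels of 28.0 and 27.4 FPKM against 15.2 and 17.4 FPKM. Among all genes tested, 26.5% lay wholly higher in RVC, as did 4 of 10 epithelial and 2 of 9 fibroblast markers. The summed level of 10 epithelial markers was 5551 and 5305 FPKM in RVC and 5724 and 4428 FPKM in fresh frozen libraries. No marker of these 4 lists was listed at 0 in all libraries.

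ESRP1 and ESRP2 are epithelial proteins that bind GU-rich RNA beside alternative exons and favour the exon choice typical of epithelium. RBFOX2 binds GCAUG, MBNL1 binds YGCY motifs and PTBP1 binds pyrimidine-rich RNA, and these 3 are expressed in many cell types, including mesenchyme. Known outcomes in epithelium are exon IIIb of the growth factor receptor FGFR2, variable exons in the hyaluronan receptor CD44, and a p120-catenin (CTNND1) translated from a downstream start.

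Among the regulators, Esrp1, Ptbp1 and Mbnl1 were the most abundant by summed FPKM, and Esrp2 and Rbfox2 were several-fold lower. The order differed by the most abundant transcript alone. Its mean was 26.1 FPKM for Esrp1, 7.20 for Esrp2, 6.69 for Mbnl1, 6.30 for Ptbp1 and 3.33 for Rbfox2. Coding transcripts held 99.9% of the summed Esrp1 level and 36.2% of the summed Ptbp1 level on average. Esrp1 stood at 38.6 and 39.3 FPKM in the RVC libraries and at 42.4 and 42.1 FPKM in the fresh frozen libraries (mean 40.6 ± 1.91, SD, n = 4). It was higher than 88.3% of the 14669 genes with a mean of at least 1 FPKM. Ptbp1, a repressor of many exons, stood at 39.0, 32.7, 40.8 and 36.3 FPKM in RVC 1, RVC 2, fresh frozen 1 and fresh frozen 2, the library order kept below. The ranges of Esrp1 and Ptbp1 overlapped, so their order (mean of Ptbp1 37.2 ± 3.50 FPKM) does not exceed their spread. Mbnl1, which in muscle drives adult exon choice, had 29.5, 27.3, 34.8 and 37.0 FPKM (mean 32.2 ± 4.49), and its range overlapped that of Ptbp1 as well.

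Esrp2 was measured at 9.51, 8.66, 9.70 and 10.7 FPKM (mean 9.65 ± 0.848, SD, n = 4). Its paralogue Esrp1 was therefore higher in every library, by a ratio of 4.06, 4.54, 4.37 and 3.92 (mean 4.22 ± 0.282). Rbfox2 had 9.95, 10.9, 8.97 and 8.62 FPKM (mean 9.61 ± 1.03), a range that overlapped that of Esrp2. The Mbnl1 and Esrp2 ranges lay apart, with a ratio of means of 3.33.

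The target genes spanned a wider range than the regulators, and neighbours in their order lay apart in all 4 libraries. Ctnnd1 was the highest of the 10 genes at 88.9, 79.4, 83.5 and 74.3 FPKM (mean 81.5 ± 6.19, SD, n = 4), higher than 94.0% of the 14669 genes. Fgfr2 followed with 16.2, 17.5, 16.4 and 17.6 FPKM (mean 16.9 ± 0.748). Arhgef11, which encodes a guanine nucleotide exchange factor for RhoA, had 13.0, 11.9, 13.0 and 13.3 FPKM (mean 12.8 ± 0.639). Enah, an actin regulator of the Ena/VASP family, had 7.31, 5.86, 4.44 and 6.84 FPKM (mean 6.11 ± 1.27). Cd44 was the lowest of the 10 genes in every library at 2.73, 3.38, 2.47 and 3.65 FPKM (mean 3.06 ± 0.552), above 28.7% of the 14669 genes.

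**Figure D1:**
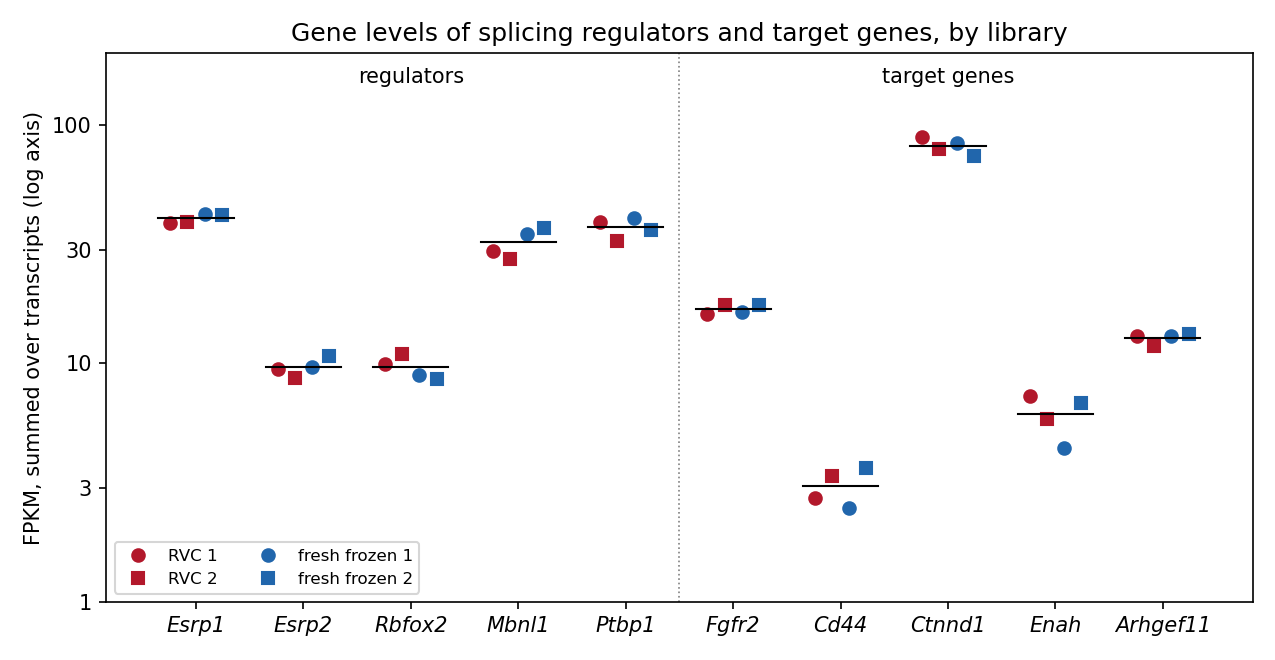
Gene levels in FPKM (summed over transcripts, log axis) of the 5 regulators and 5 target genes. Each point is a library (red, RVC; blue, fresh frozen; circle, sample 1; square, sample 2) and each black line the mean of 4 libraries. Ctnnd1 sits between 74.3 and 88.9 FPKM and Cd44 between 2.47 and 3.65 FPKM.

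No gene of the set differed between RVC and fresh frozen past the test. All 10 genes passed the filter on low values, and none was called by limma at an adjusted p under 0.05, where 0.0363% of the 13771 genes tested were called. At an unadjusted p under 0.05 the count was 1 of 10 genes, Mbnl1, against 18.4% of all genes. The RVC libraries lay wholly below the fresh frozen libraries for Mbnl1, Esrp1 and Esrp2 and wholly above them for Rbfox2. That made 4 of 10 genes without overlap, against 53.2% of all genes tested (1 higher in RVC against 26.5%, and 3 lower against 26.6%).

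Mbnl1 had the largest difference of the 10 genes, a log2 fold change of -0.32 (RVC over fresh frozen, on log2(scaled FPKM + 1), SE 0.11, 95% interval -0.58 to -0.06) with an adjusted p of 0.206 by limma. For Rbfox2 the log2 fold change was 0.23 (95% interval -0.05 to 0.50, limma adjusted p = 0.335). The corresponding values were -0.11 for Esrp1 (95% interval -0.35 to 0.13) and -0.15 for Esrp2 (95% interval -0.44 to 0.14). Among the target genes the log2 fold changes ran from -0.07 for Arhgef11 to 0.21 for Enah, and all 5 intervals included 0. Enah, Cd44, Fgfr2 and Ptbp1 each changed sign when a single library was left out. The exact permutation test cannot go below 0.33 with 2 libraries against 2 and was not used.

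**Figure D2:**
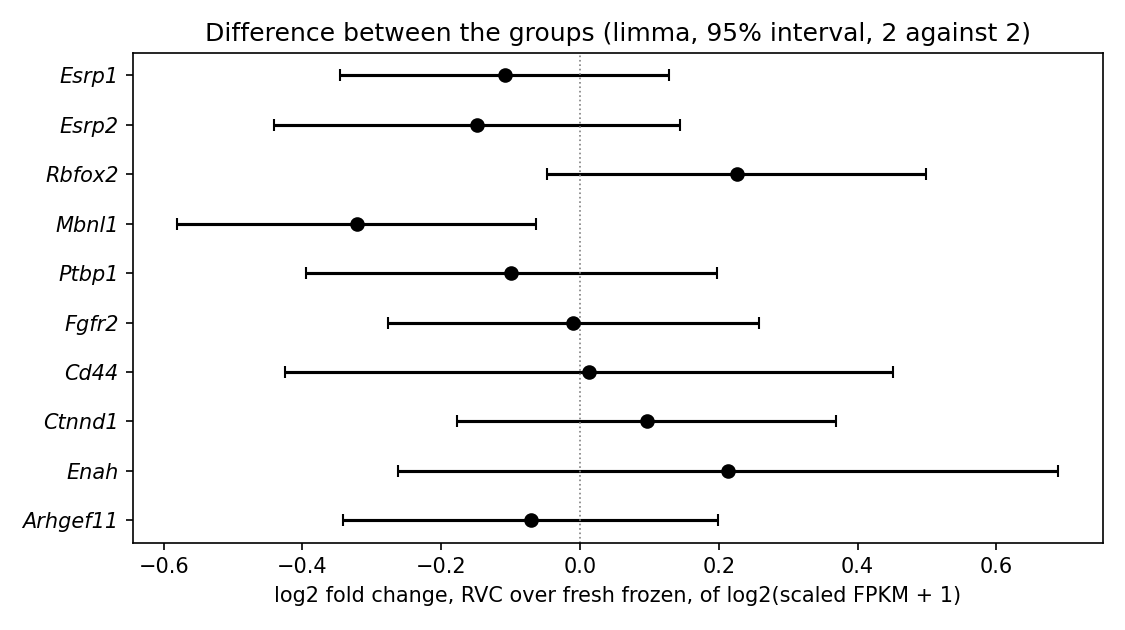
Points are log2 fold changes of RVC over fresh frozen, on log2(scaled FPKM + 1), for the 10 genes, from limma over all genes, and bars are 95% intervals (2 against 2 libraries). The Mbnl1 interval, -0.58 to -0.06, lies below 0, and the other 9 intervals include 0.

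The ESRP genes were each carried mainly by a single coding transcript, whereas Ptbp1 and Mbnl1 were divided among many. Transcripts are named as in GENCODE vM39. Esrp1-204 (chr4:11331933-11386783, minus strand, GRCm39) held 62.4%, 62.7%, 68.7% and 62.7% of the Esrp1 level (mean 64.1% ± 3.05, SD, n = 4) and was the most abundant Esrp1 transcript in all 4 libraries. A 151-nt coding exon of Esrp1 (chr4:11344112-11344262) is absent from Esrp1-204. Transcripts holding this exon took 26.2%, 26.2%, 20.9% and 24.6% of the FPKM that could be classed. The RVC values lay above the fresh frozen values by 3.47 points on average, by 1.58 points without fresh frozen 1 and by 5.35 points without fresh frozen 2. Esrp2-201 held 77.0%, 78.1%, 73.6% and 70.7% of the Esrp2 level. Retained-intron transcripts, which keep unspliced sequence and are preserved by ribosomal depletion, made up a further 19.0% of the Esrp2 level on average. By share of fragments (FPKM times length), Esrp2-201 held 92.0% on average, and no retained-intron transcript held more than 1.58%. The most abundant of these by FPKM, Esrp2-209, had a lower confidence bound of 0 in all 4 libraries.

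The most abundant Rbfox2 transcript in all 4 libraries was ENSMUST00000166610, with 29.6%, 27.6%, 46.9% and 36.8% of the gene's FPKM. It has no entry in GENCODE vM39, so its exons are not described here. Rbfox2-204, a 417-nt transcript with no annotated reading frame, was listed at 2.06, 1.96, 0.00 and 1.01 FPKM. Its confidence bounds in the authors' tables ran from 0.64 to 3.49 FPKM in RVC 1 and from 0.09 to 1.94 FPKM in fresh frozen 2, so they overlap. In fresh frozen 1 they ended at 0.33 FPKM, below the lower bounds of both RVC libraries (0.64 and 0.50 FPKM). Rbfox2-203 had 1.44, 1.61, 0.27 and 1.52 FPKM, with fresh frozen 1 far below the other 3 libraries.

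**Figure D3:**
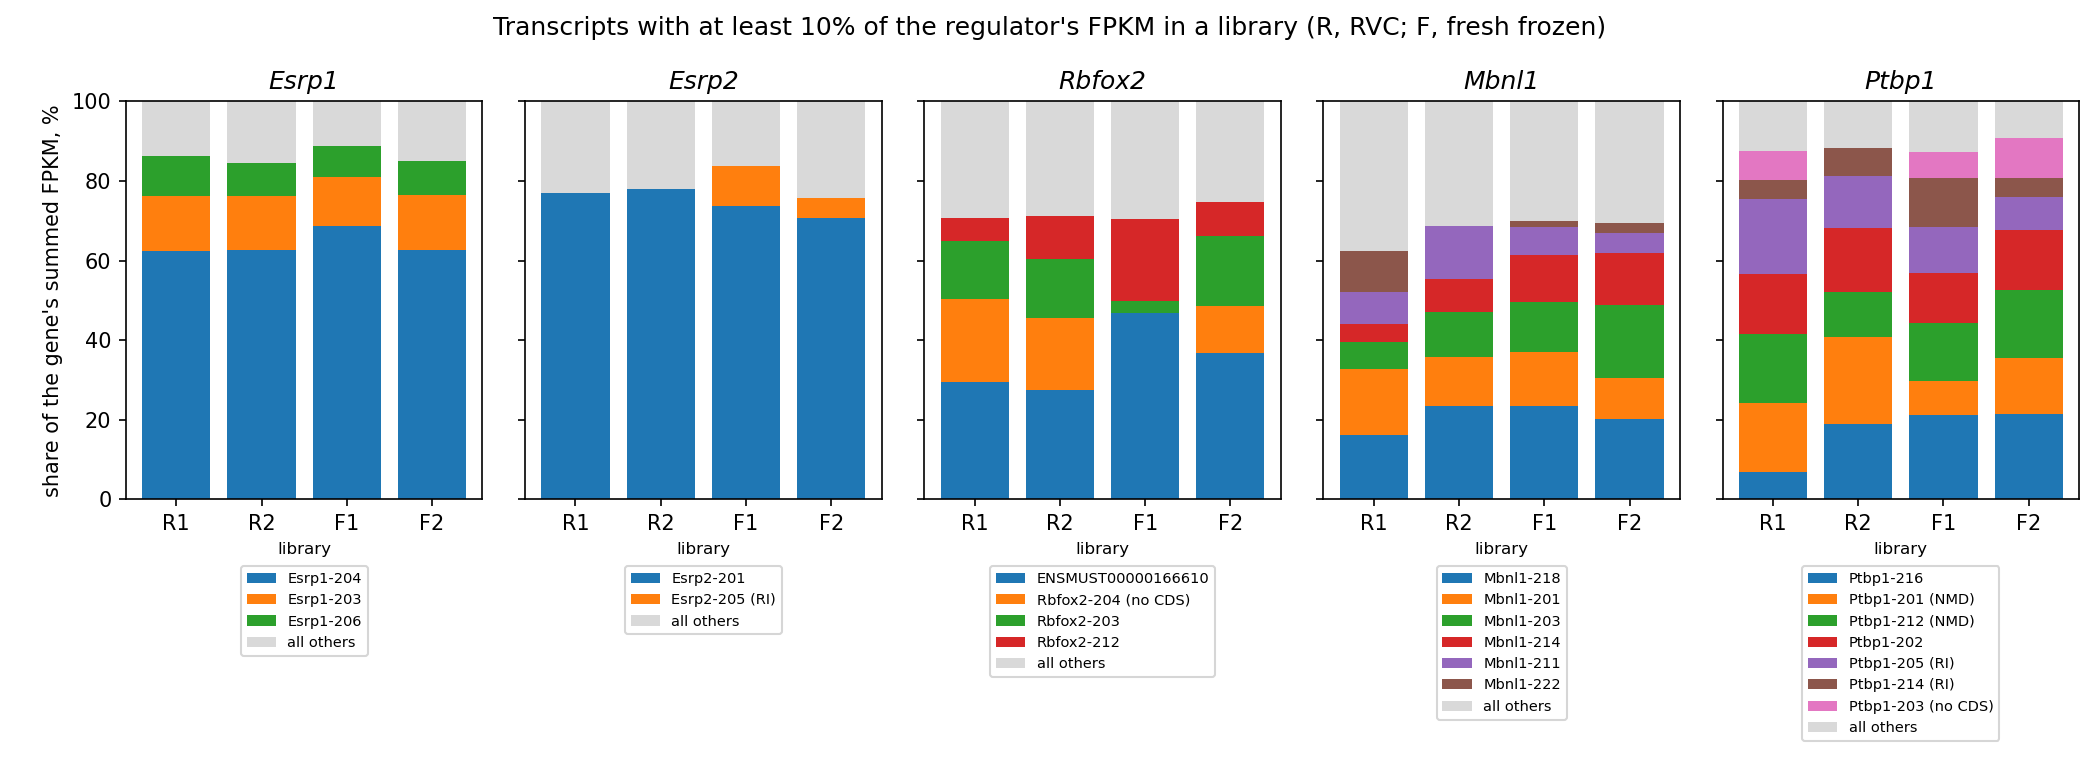
Stacked bars give each transcript's share, in percent, of a regulator's summed FPKM in RVC 1 and 2 (R1, R2) and fresh frozen 1 and 2 (F1, F2), for transcripts with at least 10% in a library. RI marks retained introns, NMD transcripts annotated for nonsense-mediated decay, and no CDS a missing reading frame. Esrp1-204 holds 62.4% to 68.7% of Esrp1 in all libraries, while the highest share of any Ptbp1 transcript is 22.0%.

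Ptbp1 had 3 different leading transcripts over the 4 libraries, and most of its FPKM lay outside coding transcripts. Coding transcripts held 36.2% of the Ptbp1 level on average, transcripts annotated for nonsense-mediated decay 31.0%, and retained introns 26.8%. By share of fragments (FPKM times length), the coding Ptbp1-216 and Ptbp1-202 held 29.7% and 21.7%, so coding transcripts were then the larger part. The decay-annotated Ptbp1-212, 385 nt long, had 15.1% of the FPKM and 3.31% of the fragments. The coding Ptbp1-216 was listed at 2.63, 6.16, 8.63 and 7.76 FPKM and the decay-annotated Ptbp1-201 at 6.79, 7.21, 3.49 and 5.12 FPKM. Ptbp1-201 was the higher of these 2 in both RVC libraries and Ptbp1-216 in both fresh frozen libraries. Neither difference passed limma over all transcripts (Ptbp1-216 log2 fold change -0.84, adjusted p = 0.329; Ptbp1-201 log2 fold change 0.61, adjusted p = 0.277).

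PTBP1 is known to repress a 34-nt exon of its own transcript, and skipping that exon shifts the reading frame and sends the RNA to decay. This exon (chr10:79697848-79697881, plus strand, GRCm39) is shown with the 250 bases that follow it (chr10:79697882-79698131), because its use separates Ptbp1-216 and Ptbp1-202, which hold it, from Ptbp1-201, which skips it. Capitals mark GCATG, the letters bound by RBFOX proteins, with T for U and searched on the transcribed strand.
Ptbp1 34-nt exon: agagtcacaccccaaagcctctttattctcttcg
Ptbp1 34-nt exon, downstream intron: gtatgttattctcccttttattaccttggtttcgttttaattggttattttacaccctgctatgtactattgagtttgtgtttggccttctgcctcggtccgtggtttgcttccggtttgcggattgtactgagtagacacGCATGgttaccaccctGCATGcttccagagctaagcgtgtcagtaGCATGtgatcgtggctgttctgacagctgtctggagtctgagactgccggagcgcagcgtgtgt
The downstream window holds GCATG 3 times, and 0.704% of the 250-base windows after the 220177 annotated internal exons hold it at least 3 times. Transcripts holding the exon took 69.3%, 67.6%, 84.4% and 76.2% of the classed Ptbp1 FPKM. These holders are not all coding, since they include the retained-intron transcript Ptbp1-205. It had 7.33, 4.26, 4.66 and 2.99 FPKM, where all holders together had 16.2, 15.7, 18.9 and 16.4 FPKM. The difference of RVC minus fresh frozen was -11.8 points on average, and -7.74 points without fresh frozen 1. The classed transcripts cover 61.1% of the Ptbp1 level. A 78-nt exon in the linker region of PTBP1 (chr10:79695951-79696028) was held by transcripts with 44.3%, 46.3%, 59.4% and 49.9% of the classed FPKM. Its group difference was -9.37 points. It was -4.63 points without fresh frozen 1, -14.1 points without fresh frozen 2 and -17.3 points with coding transcripts only.

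Mbnl1 was spread over 23 transcripts with a mean of at least 0.1 FPKM, and 6 of them reached 10% of the gene in some library. Mbnl1-218 was the most abundant on average, at 4.74, 6.41, 8.14 and 7.46 FPKM, with the RVC values below the fresh frozen values. The same order held for Mbnl1-203 (2.04, 3.11, 4.33 and 6.87 FPKM) and Mbnl1-214 (1.34, 2.22, 4.13 and 4.83 FPKM), whereas Mbnl1-201 overlapped (4.92, 3.37, 4.77 and 3.78 FPKM). Mbnl1-214 had a log2 fold change of -0.99 (SE 0.21, limma adjusted p = 0.232) and Mbnl1-203 one of -0.87 (SE 0.27, limma adjusted p = 0.272).

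The 54-nt exon of Mbnl1 (chr3:60522104-60522157, plus strand), shown because MBNL1 is known to act on it and it carries a nuclear localisation signal, contains none of the RBFOX, ESRP and PTBP1 motifs searched.
Mbnl1 54-nt exon: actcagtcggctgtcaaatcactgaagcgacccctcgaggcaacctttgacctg
It was held by transcripts with 35.4%, 42.6%, 45.7% and 45.6% of the classed FPKM. RVC 1 alone was far below the rest, and the group difference of -6.63 points became -3.04 points without it and -10.2 points without RVC 2. The 36-nt exon (chr3:60528844-60528879), held by Mbnl1-201 and Mbnl1-203 and skipped by Mbnl1-218, stood at 61.3%, 54.2%, 49.3% and 53.1%. Its group difference of 6.50 points became 2.96 points without RVC 1 and 10.03 points without RVC 2.

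Fgfr2 in these libraries was mainly of the epithelial IIIb kind. Exons IIIb (chr7:129801488-129801635, minus strand, GRCm39) and IIIc encode alternative versions of the last part of the third immunoglobulin domain and so set which fibroblast growth factors bind. Exon IIIb, 148 nt long, is shown because its share against IIIc is the classic readout of ESRP activity.
Fgfr2 exon IIIb: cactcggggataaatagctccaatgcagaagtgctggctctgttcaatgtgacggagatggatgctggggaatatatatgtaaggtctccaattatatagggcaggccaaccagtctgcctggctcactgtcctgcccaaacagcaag

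Transcripts with exon IIIb summed to 6.87, 7.13, 7.01 and 6.22 FPKM, and those with IIIc to 2.38, 2.58, 1.54 and 1.74 FPKM. The IIIb share of both classes together was 74.3%, 73.4%, 82.0% and 78.1% (mean 77.0% ± 3.95, SD, n = 4). IIIb was thus the larger class in all 4 libraries. Both RVC libraries lay below both fresh frozen libraries, with a mean difference of -6.23 points, while the libraries within a group differed by 0.902 and 3.90 points. The mean difference was -4.28 points without fresh frozen 1 and -8.18 points without fresh frozen 2. Fgfr2-211, the leading IIIb transcript, had 3.84, 3.45, 3.19 and 3.21 FPKM. The IIIc class came from Fgfr2-215 (1.06, 1.75, 1.54 and 0.29 FPKM, mean 1.16) and Fgfr2-209 (1.32, 0.83, 0.001 and 1.45 FPKM, mean 0.901). This class thus rested almost wholly on Fgfr2-215 in fresh frozen 1 and mainly on Fgfr2-209 in fresh frozen 2.

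The transcript with the highest mean of the gene, Fgfr2-217, says nothing of IIIb or IIIc. It was listed at 2.57, 4.23, 3.95 and 5.0 FPKM, is annotated as coding with 546 nt of reading frame, and holds neither exon. Its annotated span, chr7:129764181-132725079, begins far upstream of the other transcripts. By share of fragments (FPKM times length), Fgfr2-211 led instead, with 31.2% against 20.1% for Fgfr2-217. The IIIb and IIIc classes together covered 52.5% of the Fgfr2 level.

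Of the other genes of the receptor's pathway, 8 of 16 ligands and partners passed the filter. None was called (limma, adjusted p), and 1 was higher in RVC at an unadjusted p under 0.05, against 9.38% of all genes. The adaptor Grb2 was the most abundant (39.4 ± 5.56 FPKM), Fgf20 the least abundant detected (mean 0.01 FPKM), and Fgf3 was listed at 0 in all libraries. Fgf7 and Fgf10, mesenchymal ligands of the IIIb form named after their values were seen, had means of 1.34 ± 0.43 and 0.79 ± 0.15 FPKM. Of the other ligands listed, Fgf1 (6.66 ± 1.61 FPKM) and Fgf9 (1.97 ± 0.33 FPKM) were higher than both. Fgf2 had 0.90 ± 0.12, Fgf18 0.47 ± 0.12 and Fgf22 0.05 ± 0.03 FPKM.

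**Figure D4:**
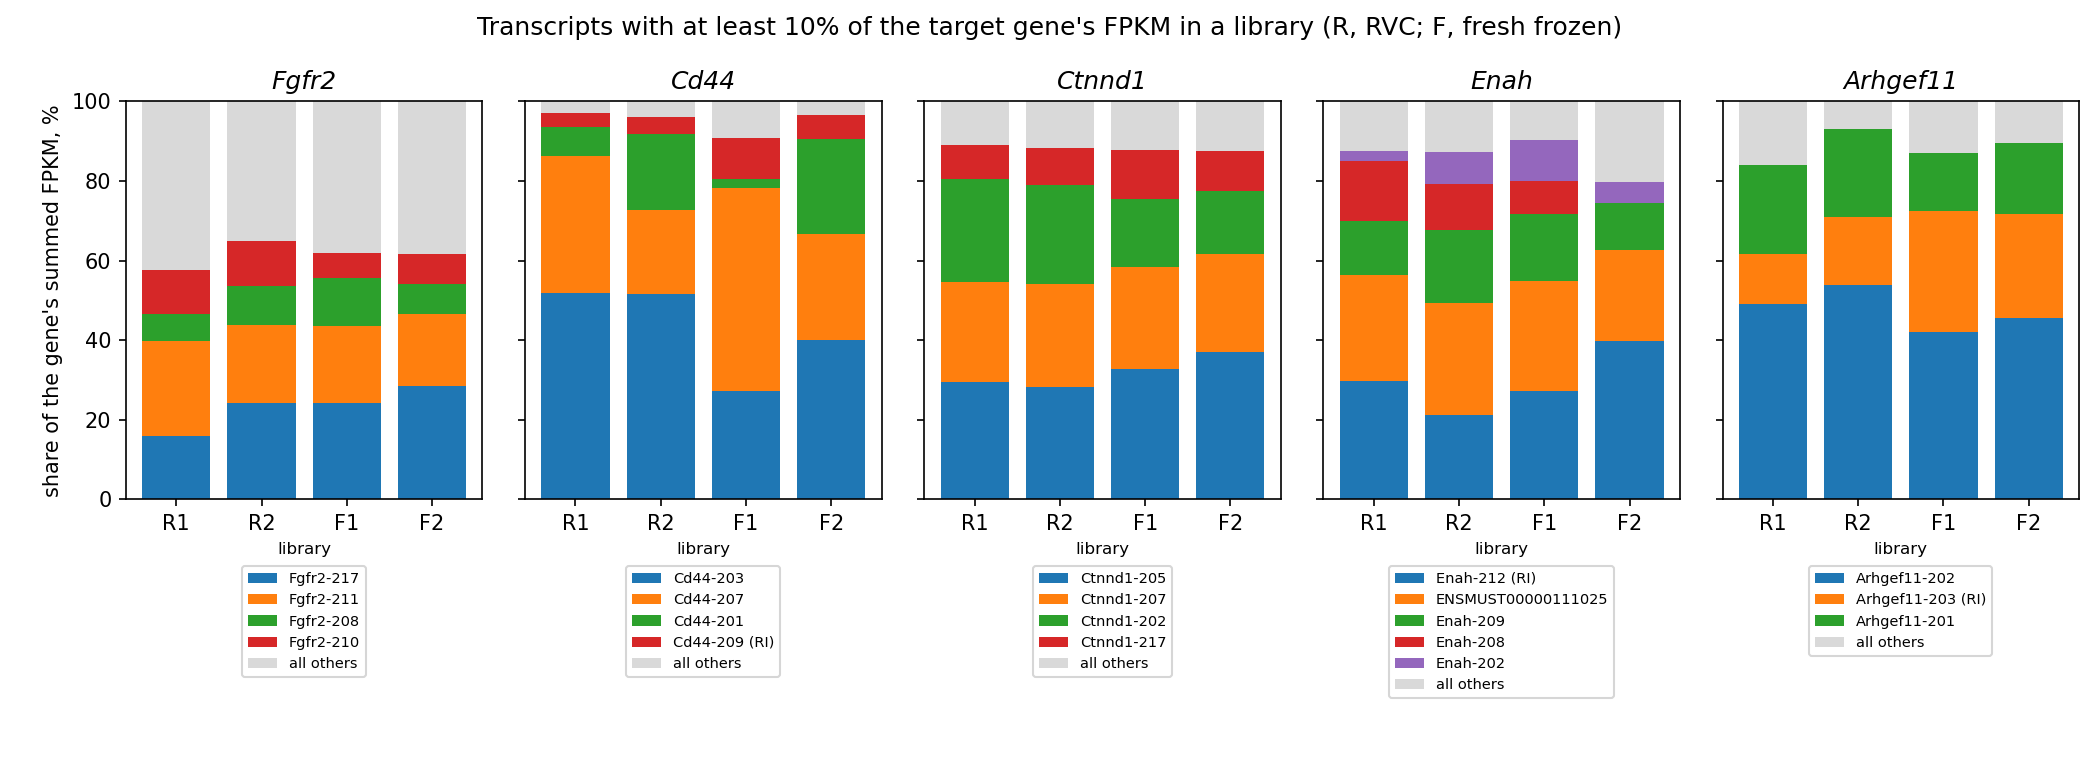
Stacked bars give each transcript's share, in percent, of a target gene's summed FPKM in RVC 1 and 2 (R1, R2) and fresh frozen 1 and 2 (F1, F2), for transcripts with at least 10% in a library. RI marks a retained intron. Ctnnd1 keeps the same leading transcript in all 4 libraries, while Cd44-203 drops from 52.0% in RVC 1 to 27.2% in fresh frozen 1.

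Cd44 was divided between the standard transcript, with no variable exon, and transcripts with variable exons, all at low levels. Cd44-203, the standard form, stood at 1.42, 1.75, 0.67 and 1.46 FPKM. Cd44-207, which holds v5, v6, v8, v9 and v10, stood at 0.94, 0.71, 1.26 and 0.97 FPKM. Cd44-201, with all 10 variable exons, stood at 0.20, 0.65, 0.05 and 0.88 FPKM. Fresh frozen 1 was the library with the least of Cd44-203 and the most of Cd44-207. The authors' confidence bounds of Cd44-203 there, 0.42 to 0.92 FPKM, lay below those of RVC 1, 1.09 to 1.74 FPKM.

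Transcripts with at least 1 variable exon took 46.1%, 46.0%, 69.7% and 57.5% of the classed Cd44 FPKM (mean 54.8% ± 11.3, SD, n = 4). The difference of RVC minus fresh frozen was -17.5 points, and -11.5 points without fresh frozen 1. The fresh frozen libraries differed from each other by 12.2 points. Among the variable transcripts, Cd44-207 had higher values than Cd44-201 in all 4 libraries. The authors' confidence bounds of these transcripts lay apart in RVC 1 and fresh frozen 1. They overlapped in RVC 2 (0.52 to 0.91 and 0.48 to 0.81 FPKM) and in fresh frozen 2 (0.77 to 1.17 and 0.70 to 1.05 FPKM).

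Variable exons v8 and v9 are shown with the intron after each, because these introns held the most TGGTGG, a form of the ESRP motif, of the Cd44 windows searched. Exon v8 lies at chr2:102664579-102664680 and its downstream window at chr2:102664329-102664578. Exon v9 lies at chr2:102662828-102662917 and its window at chr2:102662578-102662827 (minus strand, GRCm39). Capitals mark TGGTGG, and neighbouring matches can overlap.
Cd44 exon v8: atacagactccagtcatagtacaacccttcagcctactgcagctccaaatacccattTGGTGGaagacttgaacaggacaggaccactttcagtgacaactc
Cd44 exon v8, downstream intron: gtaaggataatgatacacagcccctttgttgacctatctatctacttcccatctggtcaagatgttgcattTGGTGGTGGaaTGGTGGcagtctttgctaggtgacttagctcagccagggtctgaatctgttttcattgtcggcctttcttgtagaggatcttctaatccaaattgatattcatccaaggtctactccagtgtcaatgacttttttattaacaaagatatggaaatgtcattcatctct
Cd44 exon v9: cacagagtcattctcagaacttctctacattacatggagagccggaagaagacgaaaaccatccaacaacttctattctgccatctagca
Cd44 exon v9, downstream intron: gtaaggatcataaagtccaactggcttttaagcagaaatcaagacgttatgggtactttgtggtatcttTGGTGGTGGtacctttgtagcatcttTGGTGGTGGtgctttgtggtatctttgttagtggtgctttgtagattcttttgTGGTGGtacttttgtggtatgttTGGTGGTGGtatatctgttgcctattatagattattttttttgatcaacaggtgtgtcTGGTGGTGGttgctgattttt
The window after v9 holds TGGTGG 9 times and the window after v8 holds it 3 times. Of all downstream windows, 12.3% hold it at all, 0.307% at least 3 times and 0.0168% at least 9 times. Because the v8 and v9 windows were picked for their matches, these shares do not measure how unusual they are. A match is a description of the letters and not evidence of binding in this tissue.

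Ctnnd1 transcripts annotated with the downstream start codon, which encode the epithelial form, were the more abundant. The start of isoform 1 (first base chr2:84454808), the mesenchymal form, is annotated for transcripts with 31.2, 27.7, 25.7 and 20.5 FPKM. The start of isoform 3 (first base chr2:84451295) is annotated for transcripts with 54.2, 47.9, 53.8 and 49.8 FPKM. Both starts are shown with 12 bases on each side, with the start codon in capitals, since the choice between them removes the N-terminal part of p120-catenin.
Ctnnd1 isoform 1 start: ccccttaccttcATGgacgactcagag
Ctnnd1 isoform 3 start: actatccccaggATGcaggagccagga
The isoform 3 share was 61.9%, 62.6%, 65.5% and 68.6% of coding FPKM, and the isoform 1 share 35.6%, 36.3%, 31.2% and 28.3%. A start between them (first base chr2:84454646) had 0.902% to 2.69%. In RVC the isoform 1 share was higher than in both fresh frozen libraries, by 6.17 points on average, and the libraries within a group differed by 0.653 and 2.94 points.

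The 4 main Ctnnd1 transcripts differed in their starts and in 3 small exons. Ctnnd1-205 (isoform 3 start, exon A) had 26.1, 22.3, 27.3 and 27.4 FPKM. Ctnnd1-207 (isoform 3 start, exons A and B) had 22.4, 20.6, 21.4 and 18.3 FPKM. Ctnnd1-202 (isoform 1 start, none of the 3 exons) had 23.0, 19.8, 14.3 and 11.7 FPKM, so both RVC libraries exceeded both fresh frozen libraries. Its log2 fold change of 0.68 (SE 0.15, 95% interval 0.31 to 1.06) had the lowest unadjusted p of the set (0.0055) and an adjusted p of 0.232 by limma over 24174 transcripts. Ctnnd1-217 (isoform 1 start, exons A and C) had 7.54, 7.34, 10.3 and 7.49 FPKM and overlapped between the groups.

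Exon A (chr2:84435528-84435590) is shown with the 250 bases after it (chr2:84435278-84435527) and exon C (chr2:84442876-84442893) with the 250 bases before it (chr2:84442894-84443143, minus strand), because both exons separate the isoform 1 transcripts and these introns are rich in the motifs in capitals.
Ctnnd1 exon A: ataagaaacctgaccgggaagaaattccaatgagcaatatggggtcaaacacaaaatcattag
Ctnnd1 exon A, downstream intron: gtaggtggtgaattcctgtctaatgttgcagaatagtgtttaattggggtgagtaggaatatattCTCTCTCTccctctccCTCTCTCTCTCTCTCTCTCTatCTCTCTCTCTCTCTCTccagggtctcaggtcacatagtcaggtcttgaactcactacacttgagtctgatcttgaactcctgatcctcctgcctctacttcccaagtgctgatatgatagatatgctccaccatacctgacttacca
Ctnnd1 exon C: atgagtggttctccagag
Ctnnd1 exon C, upstream intron: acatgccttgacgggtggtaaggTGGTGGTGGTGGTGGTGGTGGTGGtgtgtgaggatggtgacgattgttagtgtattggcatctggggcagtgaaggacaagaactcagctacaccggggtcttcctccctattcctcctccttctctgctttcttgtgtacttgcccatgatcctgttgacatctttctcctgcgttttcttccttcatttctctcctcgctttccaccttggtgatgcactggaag
The window before exon C holds TGGTGG 7 times, overlapping in a single run of TGG, and 0.0236% of upstream windows hold it at least 7 times. The window after exon A holds CTCTCT, a pyrimidine-rich motif of PTBP1, 16 times, overlapping, and 0.256% of downstream windows hold it at least 16 times. These windows were picked for their matches among those searched, so the shares do not measure how unusual they are. Exon A was held by transcripts with 67.3%, 68.0%, 75.7% and 78.2% of the classed FPKM, with a difference of -9.31 points (RVC minus fresh frozen). Exon B (chr2:84433532-84433618) stood at 34.6%, 34.5%, 35.2% and 34.5%, the narrowest spread of the exons described. Exon C stood at 8.54%, 9.47%, 13.2% and 10.1%, with a difference of -2.68 points, -1.12 points without fresh frozen 1 and -4.23 points without fresh frozen 2. The shares of exon A and of the starts are not separate measurements, since Ctnnd1-202 enters both.

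Enah was low, and its coding transcripts were lower still. The transcript with the highest mean, Enah-212, is a 739-nt retained-intron RNA with 2.16, 1.25, 1.21 and 2.73 FPKM. The next, ENSMUST00000111025 (1.95, 1.65, 1.23 and 1.55 FPKM), has no entry in GENCODE vM39. By share of fragments the coding Enah-209, at 1.00, 1.06, 0.75 and 0.81 FPKM, led with 47.1%. Coding transcripts held 35.9% of the Enah level in FPKM on average, so the exon shares speak for the smaller part of that level. ENSMUST00000111025, with 26.3% of the FPKM, has no annotated type and was not counted as coding. By share of fragments, Enah-202, Enah-208 and Enah-203 added 6.50%, 4.63% and 2.82% to the 47.1% of Enah-209. Coding transcripts were then the larger part, and Enah-212 had 6.32%.

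The 63-nt exon of Enah (chr1:181739162-181739224, minus strand) is shown because its inclusion in the mRNA is a mark of epithelial cells.
Enah 63-nt exon: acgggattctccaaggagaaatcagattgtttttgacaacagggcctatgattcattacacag
It and the 250 bases on either side hold none of the RBFOX, ESRP and PTBP1 motifs searched. Only Enah-202 holds it among the listed transcripts, at 0.19, 0.48, 0.46 and 0.38 FPKM. Its share was 6.93%, 18.8%, 25.0% and 25.1% of the classed FPKM (mean 19.0% ± 8.55, SD, n = 4). RVC 1 was far below the other 3 libraries, and the group difference of -12.2 points became -6.27 points without it and -5.50 points by share of fragments. The authors' bounds for Enah-202 were 0.06 to 0.32 FPKM in RVC 1 and 0.28 to 0.69 FPKM in RVC 2, so the RVC libraries overlap. The long, 843-nt form of another exon (chr1:181749223-181750065) was held by transcripts with 16.2%, 12.9%, 14.6% and 19.3%, with overlap between the groups. Its difference of -2.35 points lay between -4.67 and -0.025 points with a library left out.

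Arhgef11 was led in all 4 libraries by Arhgef11-202, with 6.39, 6.39, 5.49 and 6.05 FPKM. Arhgef11-201, the other main coding transcript, had 2.92, 2.63, 1.90 and 2.36 FPKM. The retained-intron transcript Arhgef11-203 had 1.65, 2.03, 3.95 and 3.48 FPKM, lower in both RVC libraries (log2 fold change -0.73, SE 0.16, limma adjusted p = 0.232). These 2 coding transcripts and the retained intron thus stood in opposite order between the groups, with no call.

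The 30-nt exon of Arhgef11 (chr3:87625536-87625565, plus strand) is shown because it separates Arhgef11-202, which holds it, from Arhgef11-201, which does not. It was picked as an exon that some listed transcripts hold and others skip, and not as a known target of the regulators.
Arhgef11 30-nt exon: catttcatattcccttgtcccctgtggaag
It took 65.7%, 68.8%, 74.3% and 71.9% of the classed FPKM (mean 70.2% ± 3.71, SD, n = 4), with a difference of -5.81 points (RVC minus fresh frozen), or -3.32 points with coding transcripts only. A 120-nt exon (chr3:87602705-87602824), picked in the same way and skipped by Arhgef11-202, stood at 41.1%, 42.0%, 48.0% and 46.7%. That difference of -5.82 points changed sign, to 3.32 points, when only coding transcripts were counted, which leaves out Arhgef11-203, a holder of the exon. By share of fragments it was -0.060 points. A 129-nt exon near the 3′ end (chr3:87641731-87641859) is skipped by 8 annotated transcripts, none of them among the 6 that the files list, so its use cannot be read from these values.

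**Figure D5:**
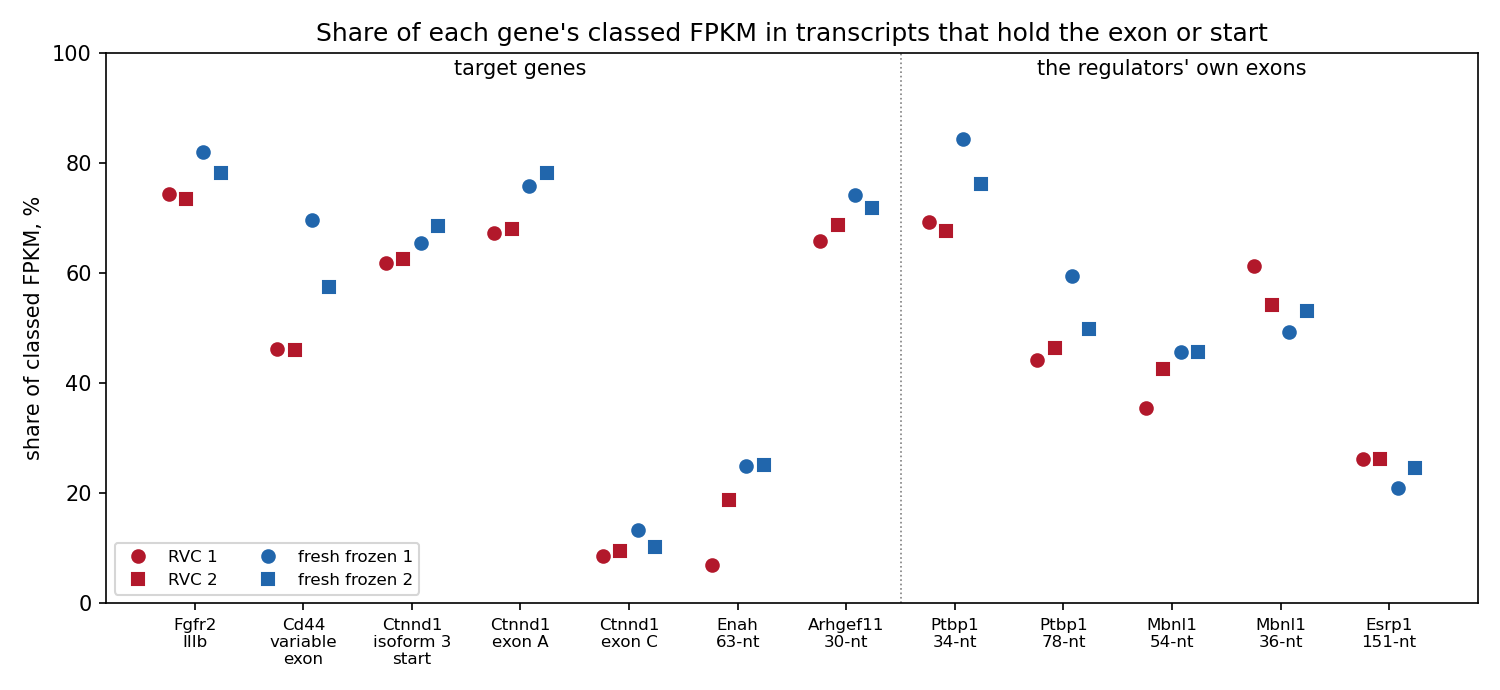
Share, in percent of classed FPKM, of transcripts that hold an exon or use a start, in each library (red, RVC; blue, fresh frozen; circle, sample 1; square, sample 2). Fgfr2 IIIb lies between 73.4% and 82.0%, and Enah 63-nt in RVC 1, at 6.93%, is below the other libraries.

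Many of these exon shares did not overlap between the groups, and that was also frequent elsewhere. Of 7315 alternative coding exons in 3629 genes, 41.4% had shares without overlap between RVC and fresh frozen, 21.0% higher and 20.4% lower in RVC. Among 51 such exons of 9 of the genes described here, 31 had no overlap, 16 higher and 15 lower in RVC. Neighbouring exons share transcripts, so these 51 are not separate measurements. Over all 7315 exons the median absolute difference was 4.84 points, and 22.4% differed by at least 10 points. By this measure, which sets transcripts holding an exon against those skipping it, exon IIIb of Fgfr2 had a mean share of 48.1%, a difference of 2.37 points and overlapping groups. Shares are given as a description with no test. The smooth muscle and endothelial markers named above were higher in the same RVC libraries in which IIIb, variable Cd44 exons and Ctnnd1 isoform 3 had the lower shares, and their part in these differences was not tested.

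Across single transcripts, 48 of the 160 passed the filter on low values and none was called, where 0.00414% of 24174 transcripts were called (limma). At an unadjusted p under 0.05 there were 6 of 48, against 15.5% of all transcripts tested. Higher in RVC were Ctnnd1-202, Ptbp1-201 and Rbfox2-204 (3 transcripts, against 8.1% of all), and lower were Mbnl1-214, Mbnl1-203 and Arhgef11-203 (3 transcripts, against 7.36%).

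Other splicing regulators showed the levels among which the 5 members sit. Of 57 listed genes, 56 were found by symbol, and the level of the remaining gene, Qki, was not read. The filter was passed by 46, and none was called (limma, adjusted p). At an unadjusted p under 0.05, 16 were lower and 0 higher in RVC, against 8.99% and 9.38% of all genes. Their median log2 fold change was -0.08, against 0.01 over all genes. Hnrnpa2b1 was the most abundant (151.4 ± 26.5 FPKM) and the neural Srrm4 the least (0.12 FPKM). Paralogues of the members, named after their values were seen, lay on both sides of them. Mbnl2 (65.1 ± 2.72 FPKM) was higher than Mbnl1, and Ptbp3 (68.2 ± 2.71 FPKM) was higher than Ptbp1. Mbnl3 (4.11 ± 1.53 FPKM) was lower than Mbnl1. The neural paralogue Ptbp2 had 7.44 ± 1.11 FPKM, and Rbfox1 (0.47 FPKM) and Rbfox3 (0.17 FPKM) were below the filter.

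Of 26 other genes published as ESRP-regulated, 25 passed the filter and none was called. Only their gene levels were compared, which do not measure exon choice. At an unadjusted p under 0.05, 3 were higher and 1 lower in RVC, against 9.38% and 8.99% of all genes. The median log2 fold change was 0.10, against 0.01 over all genes. Rac1, a small GTPase, was the most abundant (187 ± 3.53 FPKM) and Grhl1 the least (0.15 FPKM). Of 19 transcription factors of epithelial or mesenchymal state, 12 passed the filter, none was called, and none reached an unadjusted p under 0.05. Klf4, a factor of differentiated epithelium, was the most abundant (216 ± 17.3 FPKM), and the mesenchymal factor Prrx1 the least (0.09 FPKM). The order did not follow cell state throughout. The mesenchymal factors Zeb1 and Zeb2 had 9.68 ± 1.56 and 5.59 ± 0.82 FPKM, and the epithelial factors Grhl1 and Grhl3 had 0.15 and 0.18 FPKM.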

How the data were processed

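RNA-seq libraries of 4 intestinal samples were used, 2 RVC and 2 fresh frozen, grouped by their titles. The authors aligned reads to GRCm39 with TopHat2 2.1.1 and estimated transcripts with Cufflinks 2.2.1, per the submitters' processing notes; the annotation release and a strand setting are not given in the sources used here. Deposited values are FPKM per transcript with length, confidence bounds and a coverage signal, per the file headers. Cufflinks divides reads among overlapping transcripts by likelihood, so shares of transcripts that differ by a small exon rest on few fragments, and reads of antisense genes may be mixed in. Depth was compared by the ratio of coverage to FPKM.

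Gene FPKM was the sum over transcripts. Libraries were scaled by median ratio, and log2(scaled FPKM + 1) was fitted with limma 3.58.1 in R 4.3.3 (lmFit, eBayes with trend, two-sided, no covariate) over all 13771 genes or 24174 transcripts that passed 3 filters (scaled FPKM averaging at least 1, length at least 300 nt, status OK). P-values were adjusted by Benjamini-Hochberg over all of them, with a threshold of 0.05. The fit was also run on simulated data with independent normal noise drawn from its own variance estimates. Such data hold no batch difference and no error in dividing reads among transcripts, so they cannot show how the test behaves with either. The 5 genes called (Slc10a7, Gm15725, 4930506C21Rik, Gm20257 and Gm3787) and the 1 transcript called (of Calm2), named after their values were seen, lie outside the set.

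Exons came from GENCODE vM39, trimmed to the transcript ends in the files, which gave equal lengths for 157 of 157 annotated member transcripts; 3 of the 160 have no entry there. An exon share is the FPKM of transcripts holding the exon over that of transcripts holding or skipping it. For Fgfr2 the IIIb share is over transcripts with IIIb or IIIc, for Cd44 and the Ctnnd1 starts over coding transcripts, and for the long Enah exon its short form counts as skipping. Some sequences beside these exons are not reported here. Sequences were read from GRCm39, and motifs were searched on the transcribed strand only, with overlaps counted. The members and lists were chosen with earlier results of these data known. Named were the 10 members, their leading transcripts, transcripts with at least 10% of a gene in a library, and the most and least abundant gene of each list. Alternatives were a pseudocount of 0.1, other scalings and filters, a fit without trend, a block on the sample number, each library left out, shares of fragments and coding transcripts only. Tables were made with pandas 2.3.3 and figures with matplotlib 3.10.9.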

Additional observations from a re-analysis of the deposited data

How the results depend on the processing

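No member gene or member transcript was called under any alternative run, including each library left out. Among all genes the count of 5 calls became 0 with no filter on low values, 2 with a mean of at least 5 FPKM, 0 with no trend, 0 with short transcripts (below 300 nt) removed from the summed gene level, and 8 to 40 without a library (29 without RVC 1, 8 without RVC 2, 40 without fresh frozen 1 and 22 without fresh frozen 2). Among transcripts, 1 call became 0 with no filter, 6 with a mean of at least 5 FPKM, 7 with no length minimum, and 0 to 0 without a library. A replicate block on the sample number gave 112 gene calls. Deviations of same-numbered libraries correlated at r = -0.134 across 13771 genes. With 2 libraries per group this compares a single difference in each group, so it cannot decide whether the numbers pair the samples. A crossed pairing, added after seeing the data, gave 12 gene calls. With each library left out in turn, log2 fold changes ran from -0.21 to 0.23 for Cd44 (negative without RVC 2, at -0.10, or fresh frozen 1), -0.065 to 0.49 for Enah (negative without fresh frozen 1), -0.074 to 0.048 for Fgfr2 (positive without RVC 1, at 0.04, or fresh frozen 2), -0.23 to 0.027 for Ptbp1 (positive without RVC 2) and -0.49 to 0.28 for the transcript Enah-212 (positive without RVC 2, at 0.15, or fresh frozen 2). As shares of fragments (FPKM times length), the Arhgef11 30-nt exon stood at 66.2%, Cd44 variable transcripts at 67.6% and the Enah 63-nt exon at 10.3%, since longer transcripts then weigh more. Group differences changed sign for the Enah 843-nt exon (0.13 points by fragments), Ctnnd1 exon B (-0.64 to 0.078 points, positive without fresh frozen 1) and the Arhgef11 120-nt exon (3.32 points with coding transcripts only). With coding transcripts only, no value could be given where a class has no coding transcript, as for the Ptbp1 34-nt exon. The cause of these shifts was not tested. The number of fragments behind each FPKM is unknown, which limits what can be said of low values such as those of Cd44 and Enah.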
